A study of Mus musculus with 10 samples.

Results

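The genes described here are those that build and load mouse MHC class II molecules: the classical chains H2-Aa, H2-Ab1 and H2-Eb1, the invariant chain Cd74, the loading factor H2-M (H2-DMa, H2-DMb1 and H2-DMb2), its inhibitor H2-O (H2-Oa and H2-Ob), and the transactivator Ciita. They were chosen by gene symbol, and all 10 were found among the 22380 genes of the files. RNA was measured in NP-binding germinal center B cells sorted from mice 2 weeks after immunization with NP-OVA in Alhydrogel. ZBTB38 WT mice carried floxed Zbtb38 without Cre (Zbtb38fl/fl, 2 libraries). ZBTB38 HET mice carried 1 floxed allele with Cre (Zbtb38fl/+ x Vav-Cre, 2 libraries). ZBTB38 KO mice carried both floxed alleles with Cre (Zbtb38fl/fl x Vav-Cre, 6 libraries). All were of strain C57Bl6/N by the labels, which give no age and list the cells themselves as untreated. The floxed segment was exon 3 of Zbtb38, and Vav-Cre acts in blood-forming cells in general, so deletion was not limited to B cells. WT mice had no Cre, so presence of Cre and loss of Zbtb38 alleles cannot be told apart in comparisons with WT alone.

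MHC class II molecules are pairs of an alpha and a beta chain that carry peptides from endosomes to the cell surface for CD4 T cells. The invariant chain holds the peptide groove closed during transport, H2-M exchanges its last fragment for peptide, and H2-O, which B cells make, restrains H2-M. Germinal center B cells depend on this pathway, since they receive help from follicular T cells by presenting the antigen they have taken up, and Ciita is the coactivator that switches its genes on.

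Each library held between 26612431 and 41059082 estimated counts. The WT libraries held 41059082 and 27462439, the HET libraries 32191770 and 28412924, and the KO libraries a median of 30056449.5. Values below are counts scaled by library size and TMM factors (CPM) where libraries are compared, and TPM, a share of transcripts that takes account of their length, where genes are compared. A gene was called when its edgeR quasi-likelihood p, adjusted over all genes tested, was below 0.1. Fold changes are the first group named over the second, with a standard error (SE) and a 95% confidence interval. The p-values measure the spread between the libraries in each comparison, which in WT against KO were the WT and KO libraries only. They rest on few mice of this study, and other mice were not measured.

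Zbtb38 (ENSMUSG00000040433.16), the deleted gene, was measured first as a check of the labels. Its level was 164 and 152 CPM in WT, 117 and 106 CPM in HET, and in KO 18.5 CPM at the lowest, 30.4 at the median and 50.1 at the highest. All 6 KO libraries lay below all 4 WT and HET libraries, and the HET and KO means were 70.6% and 20.0% of the WT mean. In TPM it was 63.5 and 63.3 in WT, 49.6 in each HET library, 46.1 in KO 2 and 17.5 to 23.7 in the other KO libraries, so that KO 2 lay next to HET on that scale. These values cover the whole gene, exons outside the floxed segment included, and reads in exon 3 alone were not counted here. Zbtb38 was the 1 gene called in WT against KO, with a log2 fold change of 2.31 (SE 0.274, edgeR adjusted p = 0.0734). It was also the 1 gene called in WT plus HET against KO (2.08, SE 0.232, edgeR adjusted p = 0.0104). It did not pass between HET and KO (1.82, SE 0.261, edgeR adjusted p = 0.128) or between WT and HET (0.49, SE 0.346, edgeR adjusted p = 0.873). The WT against KO call was lost when WT library 1 (2.26) or 2 (2.36), or KO library 1 (2.26), 3 (2.34), 4 (2.32) or 5 (2.27), was left out. Adjusted over all genes by edgeR, p then lay between 0.26 and 1.00. The call was also lost with limma on log2(TPM + 1) (1.34), with counts scaled by transcript length (1.19) and without KO 1, 3 and 6 together (2.09), and in WT plus HET against KO 0 genes were called under each of these.

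The KO libraries 1, 3 and 6 had the shortest transcripts on average, and of these KO 3 lay nearest to the other 7. Their mean transcript length, weighted by TPM, was 1362, 1464 and 1391 bases, and that of the other 7 lay between 1524 and 1637 bases. KO 6 and KO 1 also had the lowest median correlation with the remaining libraries across genes, 0.908 and 0.929. The other 8, with KO 3 at 0.963 among them, lay between 0.961 and 0.967, and genes are not independent replicates. Since all 3 libraries are KO, part of the results on KO mice is given with and without them, an alternative chosen after the data were seen. The marker medians, the shares and ratios and many single genes are given only with them.

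Germinal center markers were abundant in every library. All 11 genes measured for them averaged at least 1 CPM, and their sum was 6573 and 6587 CPM in WT, 6860 and 6894 in HET, and 6168 to 9343 in KO, with the highest in KO 1. Cd79b, a signalling chain of the B cell receptor, had the highest TPM of them, and the gene named as leading each marker list is likewise that of the highest TPM. The light zone sum, led by Cd83, lay between 1350 (KO 6) and 1905 CPM (KO 1), and the dark zone sum, led by the mitotic activator Cdc20, between 2342 (WT 2) and 3299 CPM (HET 2). No marker of either zone was at 0 in every library.

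Other cells that carry MHC class II were looked for by their markers, since they would add to the same transcripts. The 10 dendritic cell markers summed to 72.1 and 76.1 CPM in WT, 93.8 and 71.6 in HET, and 63.7 to 101 in KO. Flt3 made up 87.7% of that sum, and the other 9 summed to 13.8 and 10.4 CPM in WT, 3.85 and 4.84 in HET, and 1.99 to 18.3 in KO. Clec9a, Siglech, Cd209a, Batf3 and Clec10a, which define dendritic cell subsets, each averaged under 1 CPM. The 12 macrophage and monocyte markers, led by Lyz2, summed to 634 and 496 CPM in WT, 98.4 and 104 in HET, and in KO 86.0, 301 and 822 at the lowest, median and highest. WT was therefore above HET, and KO ranged on both sides of them, with KO 4 the highest of the 10 libraries. Naive B cell markers, led by Fcer2a, summed to 1537 and 1572 CPM in WT, 1108 and 1102 in HET, and 1052 to 2089 in KO, highest in KO 6. The plasma cell sum, led by Jchain, lay between 1835 (HET 2) and 2648 CPM (KO 1). T cell markers, led by Lck with 67.1% of the sum, summed to 310 and 313 CPM in WT, 198 and 201 in HET, and 196 to 285 in KO. Without Lck they summed to 148 and 145 CPM in WT, 27 and 37 in HET, and 43.1 to 114 in KO, so that WT lay above KO and KO above HET. Erythroid markers, led by Hbb-bt, summed to 35.4 to 96.0 CPM. No marker of these lists was at 0 in all 10 libraries, edgeR called 0 of them in any comparison, and their part in the MHC class II values was not tested. DESeq2 and limma called 0 in WT, alone or with HET, against KO, and DESeq2 called some in HET against KO and WT against HET, the macrophage markers C1qc and Cd14 among them.

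Of the members, 8 lie together on chromosome 17, within 224 kb between 34092340 and 34316674 (GRCm38, Gencode vM21). In order along the chromosome they are H2-Oa (ENSMUSG00000024334.8, chr17:34092340-34095234), H2-DMa (ENSMUSG00000037649.9, chr17:34119541-34139101), H2-DMb2 (ENSMUSG00000037548.14, chr17:34143307-34151555) and H2-DMb1 (ENSMUSG00000079547.3, chr17:34153072-34160230). Further along are H2-Ob (ENSMUSG00000041538.15, chr17:34238903-34254414), H2-Ab1 (ENSMUSG00000073421.5, chr17:34257689-34269419), H2-Aa (ENSMUSG00000036594.14, chr17:34282744-34287823) and H2-Eb1 (ENSMUSG00000060586.10, chr17:34305867-34316674). H2-Aa is on the minus strand and the other 7 are on the plus strand. Ciita (ENSMUSG00000022504.10, chr16:10480059-10528418) and Cd74 (ENSMUSG00000024610.14, chr18:60803848-60812652) lie elsewhere, both on the plus strand.

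Together the 10 genes made up 3.35% and 3.46% of all TPM in WT, 3.24% and 3.28% in HET, and 2.83% to 3.8% in KO. Cd74 was the most abundant, with a mean of 17521 TPM over the 10 libraries, rank 2 among 22380 genes. The classical chains followed: H2-Ab1 at 6859 TPM (rank 9), H2-Aa at 3905 (rank 18) and H2-Eb1 at 2671 (rank 32). Among the loading genes, H2-DMb2 had 1095 TPM, H2-DMa 471 and H2-DMb1 139. H2-Ob had 314 TPM, H2-Oa 247 and Ciita, a regulator and not a structural part, 129. Ranked by mean TPM, each gene was above the next in 10 of 10 libraries, except that H2-DMb1 was above Ciita in 6 of 10. H2-Ob and H2-Oa came closest in KO 1, where their TPM ratio was 1.02.

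**Figure D1:**
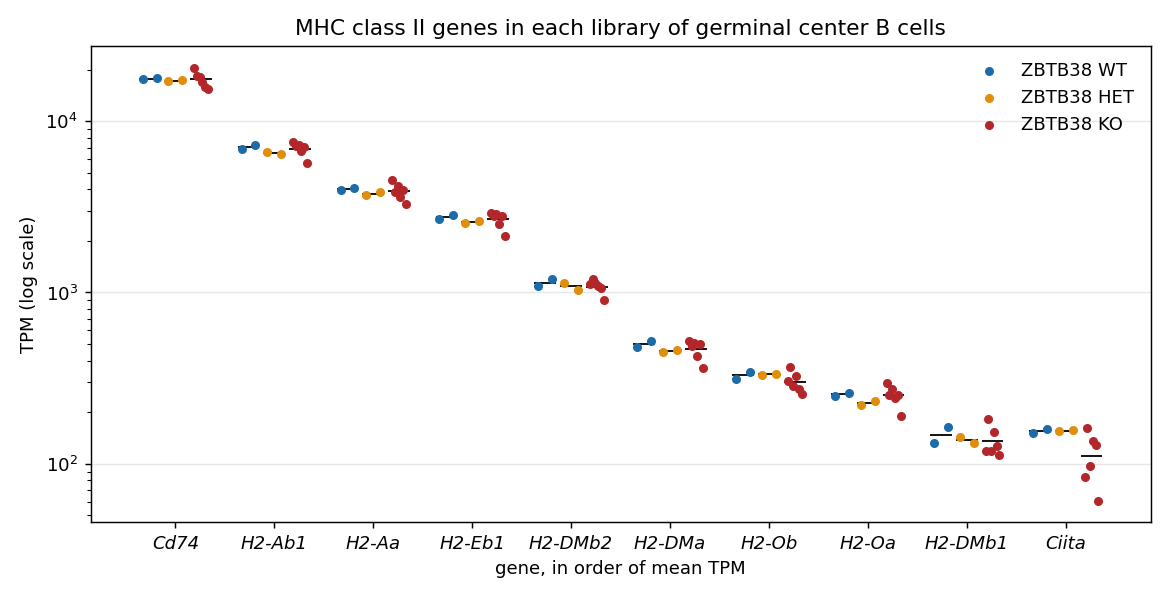
TPM (log axis) of the 10 MHC class II genes in each library of ZBTB38 WT (n = 2), HET (n = 2) and KO (n = 6) germinal center B cells, with a short line at each group mean. The genes run from Cd74 (mean 17521 TPM) to Ciita (129 TPM), and the KO range overlaps those of WT and of HET for each of them.

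Chains that pair were compared by the ratio of their TPM. The alpha chain H2-Aa had 0.536 to 0.597 of the TPM of its beta chain partner H2-Ab1 across the 10 libraries. Cd74, which is made in excess of the chains it accompanies, had 1.14 to 1.38 times the summed TPM of H2-Aa, H2-Ab1 and H2-Eb1. H2-DMa, the alpha chain of H2-M, had 0.342 to 0.419 of the summed TPM of the H2-DMb genes. H2-Oa had 0.667 to 0.982 of the TPM of H2-Ob.

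The comparison of WT with KO asks whether loss of ZBTB38, a zinc finger protein that binds methylated DNA, alters RNA levels in germinal center B cells. H2-Ab1, the most abundant classical chain, was at 5005 and 5082 CPM in WT, and in KO at 4580 at the lowest, 5167 at the median and 7026 at the highest. H2-Aa was at 2683 and 2635 CPM in WT, and at 2264, 2671 and 3855 in KO. H2-Eb1, the beta chain of I-E, whose alpha chain gene is defective in C57BL/6 mice, was at 1904 and 1933 CPM in WT, and at 1686, 1968 and 2632 in KO. For each of these chains KO 1 was the highest and KO 4 the lowest of the 10 libraries, so that the KO values enclosed the WT values. The log2 fold changes, WT over KO, were −0.10 (SE 0.192) for H2-Aa, −0.12 (SE 0.167) for H2-Ab1 and −0.10 (SE 0.174) for H2-Eb1. The 95% interval for H2-Ab1 ran from −0.49 to 0.25.

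Cd74 was at 13114 and 12684 CPM in WT, 12650 and 12724 in HET, and 11895, 13110 and 19495 at the lowest, median and highest in KO. In CPM, KO 1 lay far above the other KO libraries, of which the next was KO 3 at 14668 CPM, and 2 KO libraries lay below all WT and HET libraries. In TPM the gap was narrower, with KO 1 at 20585, KO 2 next at 18383 and KO 6 lowest at 15340. The log2 fold change was −0.14 in WT against KO (SE 0.186) and −0.15 in WT plus HET against KO (SE 0.136, interval −0.44 to 0.15), and without KO 1, 3 and 6 it was 0.06 and 0.05. In bulk RNA, fewer cells of a type and less RNA per cell cannot be told apart, for Cd74 or for any other member.

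In WT against KO, 0 of 10 members were called by edgeR, where 1 of 14203 genes (0.00704%) was called. At an unadjusted edgeR p under 0.05 the counts were 0 of 10 members and 311 of 14203 genes (2.19%), and DESeq2 and limma called 0 of 10 members and had 0 under 0.05 as well. Of the 10, 8 had a fold change below 0 on the log2 scale and 2, H2-Ob and Ciita, above it, and 10 of 10 were above 0 on limma's log2(TPM + 1) scale and 9 of 10 without KO 1, 3 and 6. The TPM scale moved the median of all genes to 0.11 (0.16 with 0.1 added in place of 1), and the members' median lay −0.04 from it (−0.09); on the CPM scale the members' median was −0.09 and that of all genes −0.01. Without KO 1 the members' median was 0.01, with 5 above and 5 below 0. The outermost limits of the members' 95% intervals of the fold change were 0.667 (H2-Oa) and 1.64 (Ciita), and the interval of H2-Ob ran from 0.812 to 1.25. A change within a member's own interval was not excluded by these libraries. The intervals are not limits of detection, since p was adjusted over all genes and larger changes can also miss the threshold.

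WT and HET together against KO was the study's own wider comparison, with 4 libraries against 6. The classical chains in HET were at 4808 and 4595 CPM for H2-Ab1, 2484 and 2514 for H2-Aa, and 1800 and 1821 for H2-Eb1. For H2-Ab1, 3 KO libraries were above all 4 WT and HET libraries, 2 were among them and 1 was below. The log2 fold change of H2-Ab1 was −0.16 (SE 0.122, interval −0.43 to 0.10, edgeR adjusted p = 0.768), and that of H2-Aa and H2-Eb1 −0.14 each (SE 0.139 and 0.125). Without KO 1, 3 and 6, the value for H2-Aa was 0.05.

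For the loading factor genes too, the KO range overlapped those of WT and HET. H2-DMa was at 473 and 492 CPM in WT, 444 and 447 in HET, and 394, 484 and 651 at the lowest, median and highest in KO. H2-DMb2 was at 913 and 963 CPM in WT, 959 and 857 in HET, and 860, 941 and 1203 in KO. H2-DMb1 was at 116 and 137 CPM in WT, 124 and 113 in HET, and 112, 122 and 151 in KO. For both H2-DMb genes 4 of 6 KO libraries lay among the WT and HET libraries, and KO 1 was the highest for H2-DMb2 but KO 2 for H2-DMb1. The log2 fold changes, WT plus HET over KO, were −0.11 (SE 0.136) for H2-DMa, −0.09 (SE 0.108) for H2-DMb2 and −0.04 (SE 0.111) for H2-DMb1.

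H2-Oa and H2-Ob, the chains of the inhibitor, ordered the libraries differently. H2-Oa was at 160 and 159 CPM in WT, 140 and 145 in HET, and 142, 160 and 242 at the lowest, median and highest in KO. H2-Ob was at 523 and 559 CPM in WT, 547 and 538 in HET, and 478, 510 and 637 in KO. For H2-Oa, 3 KO libraries lay above all WT and HET libraries and 3 among them, whereas for H2-Ob, 4 lay below all of them and 2 above. The log2 fold changes, WT plus HET over KO, were −0.20 for H2-Oa (SE 0.149, interval −0.53 to 0.12) and 0.02 for H2-Ob (SE 0.10, interval −0.20 to 0.23). That of H2-Oa was −0.08 without KO 1, −0.04 without KO 1, 3 and 6 and −0.05 on limma's log2(TPM + 1) scale.

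Ciita was at 495 and 504 CPM in WT, 522 and 504 in HET, and 274, 418 and 516 at the lowest, median and highest in KO. The 4 WT and HET libraries were close together, 5 of 6 KO libraries lay below all of them, and KO 2 lay within their range. The lowest 3 of the 10 libraries were KO 6, KO 3 and KO 1, those with the shortest mean transcript length; the part of transcript length in the difference was not tested. The log2 fold change was 0.28 in WT against KO (SE 0.197) and 0.30 in WT plus HET against KO (SE 0.143, interval −0.00 to 0.61). For the latter the edgeR p was 0.0532 before and 0.744 after adjustment over all genes. It was above 0 under each alternative run for WT plus HET against KO, from 0.11 to 0.55, with adjusted p from 0.540 to 0.999, and was 0.11 without KO 1, 3 and 6.

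In WT plus HET against KO, edgeR called 0 of 10 members and 1 of 13347 genes (0.00749%). At an unadjusted edgeR p under 0.05 there were 0 of 10 members and 841 genes (6.30%), and DESeq2 and limma called 0 members with 1 each, Ciita, under 0.05. The members' median was −0.12 and that of all genes −0.02, with 8 of 10 members below 0, whereas 8 of 10 were above 0 on limma's log2(TPM + 1) scale and 6 of 10 without KO 1, 3 and 6. Without KO 1 alone 8 of 10 were below 0 and the median was −0.03. On that TPM scale the median of all genes was 0.08 (0.11 with 0.1 added in place of 1), and the members' median lay −0.05 from it. The outermost limits of the members' 95% intervals of the fold change were 0.694 and 1.53.

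**Figure D2:**
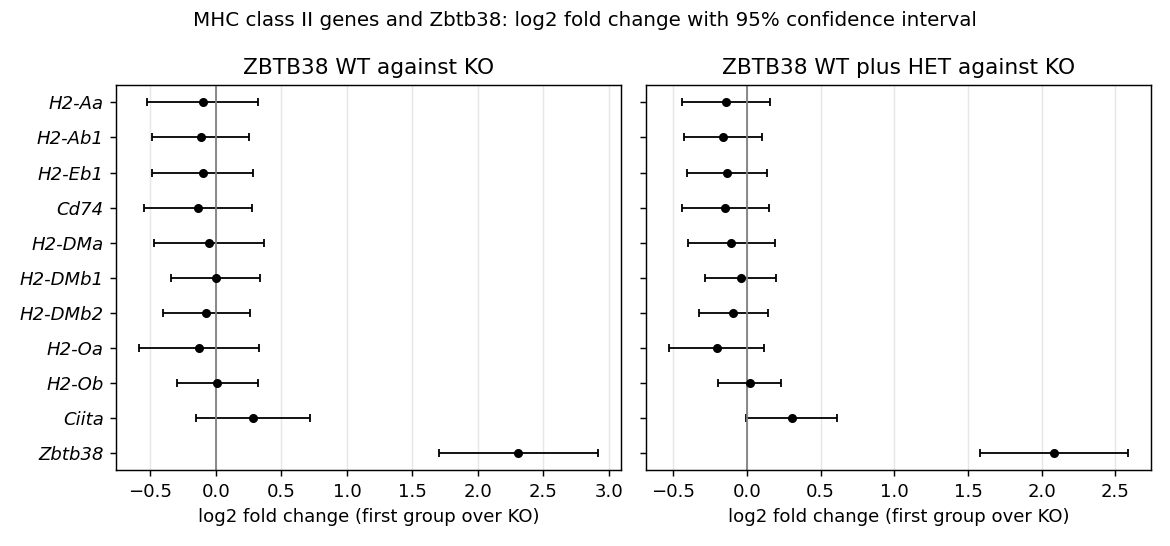
Log2 fold change (edgeR, first group over KO) of the 10 MHC class II genes and Zbtb38 in ZBTB38 WT (n = 2) and in WT plus HET (n = 4) against KO (n = 6); points are estimates and bars 95% confidence intervals. The intervals of all 10 members include 0, and Zbtb38 lies at 2.31 and 2.08.

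HET and KO both carry Cre and differ in the remaining Zbtb38 allele. Markers of other cells, of which edgeR called 0, had median log2 fold changes of −1.55 for macrophages and monocytes and −1.13 for T cells. The medians were −1.19 for naive B cells, −1.03 for dendritic cells and −3.19 for erythroid cells. In that order, 6 of 12, 5 of 12, 6 of 10, 1 of 8 and 3 of 6 had an unadjusted edgeR p under 0.05, beside 10.2% of all genes. The part of these cells in the members' values was not tested. Of the members, H2-Oa and Ciita had the lowest and highest log2 fold changes, HET over KO, −0.28 (SE 0.196) and 0.33 (SE 0.184). The classical chains were at −0.18 (SE 0.179) for H2-Aa, −0.21 (SE 0.154) for H2-Ab1 and −0.17 (SE 0.162) for H2-Eb1. By edgeR, 0 of 10 members were called and 1 of 14354 genes (0.00697%), which was Hnrnpll, named after its values were seen. At an unadjusted edgeR p under 0.05 there were 0 members and 1467 genes (10.2%), and DESeq2 (2.96% of all genes called) and limma called 0 members with 0 under 0.05. The members' median was −0.15 (−0.08 without KO 1, −0.02 without KO 1, 3 and 6, −0.01 on limma's log2(TPM + 1) scale), that of all genes −0.07, and the outermost limits of the members' intervals of the fold change were 0.612 and 1.66.

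Between WT and HET, which both keep an undeleted Zbtb38 allele, the fold changes of 8 of 10 members were above 0 on the log2 scale. H2-Oa had the largest log2 fold change, WT over HET, of 0.15 (SE 0.236), and Ciita the lowest, −0.05 (SE 0.229). Cd74 was at 0.01 (SE 0.208), H2-Ab1 at 0.09 (SE 0.186) and H2-DMa at 0.10 (SE 0.217). By edgeR, 0 of 10 members and 1 of 14354 genes (0.00697%), again Hnrnpll, were called, and an unadjusted p under 0.05 was found for 0 members and 922 genes (6.42%). The count called by DESeq2 (1.06% of all genes called) and by limma was 0 of 10, with 0 under 0.05. The members' median was 0.07 and that of all genes 0.01, and the outermost limits of the members' intervals of the fold change were 0.683 and 1.59. Markers of other cells, of which edgeR called 0, had medians of 2.02 for macrophages and monocytes and 2.29 for T cells. The medians were 1.11 for naive B cells and 1.21 for dendritic cells, and the part of these cells in the members' values was not tested. The 4 comparisons share libraries, so their values are not separate evidence.

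H2-DMb1 and H2-DMb2 are neighbouring genes for the beta chain of H2-M and nearly the same in coding sequence; their untranslated parts, which can also divide the reads, were not compared. Their coding sequences have 786 bases each and differ at 32 of them (95.9% identical, Gencode vM21, GRCm38), and the longest stretch with no difference is 221 bases. Exon 2 holds 24 of the 32 differences. Coding bases 206 to 295, all in exon 2 and on the plus strand, are shown because they hold 19 of the bases that can tell the transcripts apart; capitals mark the differing bases, at chr17:34155583-34155672 for H2-DMb1 and chr17:34147801-34147890 for H2-DMb2.
H2-DMb1: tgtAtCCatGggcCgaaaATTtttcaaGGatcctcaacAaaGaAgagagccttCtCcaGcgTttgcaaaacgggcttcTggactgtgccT
H2-DMb2: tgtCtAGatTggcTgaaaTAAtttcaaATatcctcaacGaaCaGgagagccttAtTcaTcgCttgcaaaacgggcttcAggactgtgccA

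H2-DMb2 was the main source of beta chain RNA in each library, as the deposited estimates divide the reads. Its share of the summed H2-DMb TPM was 89.1% and 88.0% in WT, 88.9% and 88.7% in HET, and 86.7%, 89.1% and 90.6% at the lowest, median and highest in KO. KO 2 was the lowest and KO 3 the highest of the 10 libraries, so the KO range enclosed the others. The mean share differed by −0.37 percentage points in WT against KO (2-sided exact permutation p = 0.786) and by −0.24 in WT plus HET against KO (exact permutation p = 0.762). Within H2-DMb2, the transcript ENSMUST00000171231.7, with a coding sequence of 393 bases, held 10.5% to 12.2% of TPM.

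H2-O restrains H2-M, and the balance of their RNA was measured as the log2 ratio of summed H2-Oa and H2-Ob TPM to summed H2-DMa, H2-DMb1 and H2-DMb2 TPM. The ratio was −1.59 and −1.63 in WT, −1.65 and −1.53 in HET, and −1.68, −1.61 and −1.55 at the lowest, median and highest in KO. KO values lay on both sides of WT, and most of them within the HET range. The difference was −0.00 in WT against KO (exact permutation p = 1.00) and 0.01 in WT plus HET against KO (exact permutation p = 0.810).

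Cd74 is spliced into a short and a long form, and the long form carries an additional thyroglobulin type domain that can inhibit cathepsin L. The long form, the sum of ENSMUST00000097563.8 and ENSMUST00000167610.1 with a coding sequence of 840 bases each, held 5.93% and 6.06% of Cd74 TPM in WT, 6.60% and 6.59% in HET, and 5.40%, 5.91% and 6.85% at the lowest, median and highest in KO. HET lay above WT, and KO spanned them both. The share differed by 0.04 percentage points in WT against KO (exact permutation p = 0.929) and by 0.34 in WT plus HET against KO (exact permutation p = 0.305). The rest of Cd74 came from ENSMUST00000050487.14, with a coding sequence of 648 bases.

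Ciita is transcribed from several alternative promoters, which are used differently in dendritic cells, B cells and interferon-gamma treated cells. The transcript with the longest coding sequence, ENSMUST00000230395.1 (3468 bases, first exon chr16:10480059-10480426), was estimated at 0 in 7 of 10 libraries. It held 0.331% of Ciita TPM in WT 2, 0.239% in KO 4 and 3.57% in KO 6. ENSMUST00000230450.1, whose first exon (chr16:10480164-10480426) lies within the same one, held 0.912% and 1.26% in WT, 0.117% and 0.863% in HET, and 0% (KO 6) to 1.39% (KO 4) in KO. For ENSMUST00000230395.1 in a library with 0, up to 3 counts would allow at most 0.0147% to 0.0269% of the gene's counts, counting error only. Its share differed by −0.47 percentage points in WT against KO (exact permutation p = 0.964) and by −0.55 in WT plus HET against KO (exact permutation p = 0.90), and without KO 6 by 0.12 and 0.04. All 8 permutation tests of shares and ratios had an adjusted p of 1.0; the smallest p possible was 0.0357 with 2 against 6 libraries and 0.00476 with 4 against 6.

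Nearly all Ciita RNA was assigned to another pair of transcripts, which were singled out after their values were seen and are described without a test. ENSMUST00000023147.7 (6007 bases, first exon chr16:10488279-10488424) had 61.4 and 65.8 TPM in WT, 66.1 and 64.6 in HET, and 45.6 to 80.9 in KO. ENSMUST00000230146.1 (3953 bases, first exon chr16:10489781-10489864) had 82.2 and 81.7 TPM in WT, 84.3 and 82.0 in HET, and 12.5, 51.2 and 68.1 at the lowest, median and highest in KO. For the shorter transcript 6 of 6 KO libraries lay below all WT and HET libraries, and for the longer one the groups overlapped. The share of all transcripts separated in this way is not given here, so the separation cannot be called particular to Ciita. The shorter transcript held 51.2% to 54.7% of Ciita TPM in WT and HET and 20.5% to 50.5% in KO. Its lowest values, 12.5, 18.3 and 37.2 TPM, were in KO 6, KO 1 and KO 3, the libraries with the shortest mean transcript length, and the other 3 KO libraries had 68.1, 67.4 and 65.3 TPM. The pair differ both in their first exon and at their last exon, which has 2655 bases in the longer and 663 in the shorter, so a difference at the 5′ end and one at the 3′ end cannot be told apart. Whether the libraries' transcript length plays a part was not tested.

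**Figure D3:**
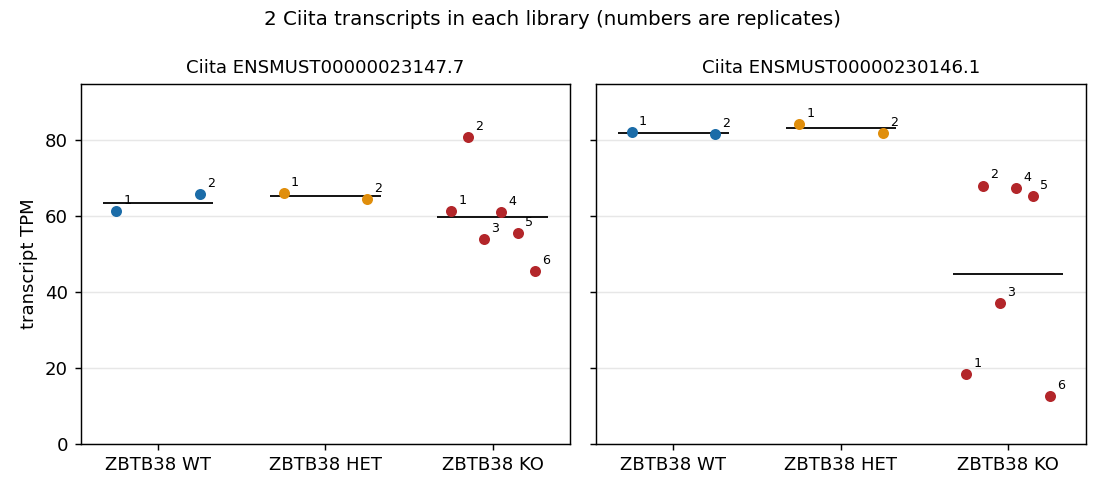
TPM of the transcripts of Ciita with the highest levels in each library of ZBTB38 WT (n = 2), HET (n = 2) and KO (n = 6), with replicate numbers beside the points and a line at each group mean. For ENSMUST00000230146.1 the KO libraries lie between 12.5 and 68.1 TPM and the others between 81.7 and 84.3 TPM. It was singled out after its values were seen, with no share over all transcripts beside it.

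The promoters of MHC class II genes share an arrangement known as the X and Y boxes, bound by RFX, CREB and NF-Y, on which Ciita is assembled. RefSeq promoter windows (GRCm38.p6, 250 bases before to 50 after the gene start) were available for 7 of the 10 members in 8 entries, and none was listed for H2-Ab1, Cd74 or Ciita. On both strands, TGATTGG, the core of a Y box, was found in 6 of 7 genes and in 7.82% of 32851 promoters, and GCAAC, from the X box, in 5 of 7 and in 35.2%. GCAAC followed by TGATTGG on the same strand, 15 to 45 bases apart, was found in H2-Oa, H2-Ob, H2-Aa and H2-Eb1, and in 0.298% of promoters. A match describes letters in the window and is not a measured binding site. H2-DMa had no TGATTGG in either of its entries. Stretches of 60 bases are shown so that the shared letters can be compared; capitals mark GCAAC, where it precedes, and TGATTGG. H2-Oa (chr17:34092289-34092348), H2-DMb2 (chr17:34145112-34145171), H2-DMb1 (chr17:34153083-34153142), H2-Ob (chr17:34238801-34238860) and H2-Eb1 (chr17:34305761-34305820) are read on the plus strand and H2-Aa (chr17:34287859-34287918) on the minus strand.
H2-Oa: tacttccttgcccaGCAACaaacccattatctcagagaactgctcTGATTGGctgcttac
H2-Ob: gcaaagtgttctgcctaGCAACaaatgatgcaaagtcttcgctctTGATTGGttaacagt
H2-Aa: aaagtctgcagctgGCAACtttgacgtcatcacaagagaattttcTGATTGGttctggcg
H2-Eb1: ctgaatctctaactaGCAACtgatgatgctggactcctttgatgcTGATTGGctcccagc
H2-DMb2: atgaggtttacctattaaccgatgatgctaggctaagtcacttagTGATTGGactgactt
H2-DMb1: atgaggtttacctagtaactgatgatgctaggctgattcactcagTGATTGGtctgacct

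TGATTGG began between 45 bases (H2-Oa) and 92 bases (H2-DMb2) before the RefSeq gene start. Between GCAAC and TGATTGG lay 26 bases in H2-Oa and H2-Aa, 25 in H2-Eb1 and 23 in H2-Ob.

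Across the 10 libraries the classical chains and Cd74 varied together, and of the other members some followed them and some did not. Against the mean of the standardized log2 CPM of H2-Aa, H2-Ab1, H2-Eb1 and Cd74, Pearson's r over 10 libraries was 0.973 for H2-Oa, 0.952 for H2-DMa and 0.940 for H2-DMb2. It was 0.568 for H2-Ob, 0.0576 for H2-DMb1 and −0.236 for Ciita. Without KO 1, r was 0.908 for H2-Oa, 0.924 for H2-DMa, 0.805 for H2-DMb2, −0.225 for H2-Ob, −0.334 for H2-DMb1 and −0.217 for Ciita, and that of Cd74, itself part of the mean, was 0.782 in place of 0.952. The 5 genes outside the list with the most similar pattern, among 8588 genes of at least 10 CPM, were Smim14 (r = 0.986), Pmf1 (0.980), Vps28 (0.976), Ndufv3 (0.976) and Bmyc (0.968). Without KO 1 their r was 0.948, 0.951, 0.897, 0.894 and 0.859. These values describe libraries that share scaling and length differences, and carry no test.

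Other genes of the pathway were read from lists made by function. By edgeR and limma, 0 genes of these lists were called in any comparison, and by DESeq2 Creb1 and Ctsb were called in HET against KO and no others, where 2.96% of all genes were called. The medians of all genes, beside which the list medians stand, were −0.01 in WT against KO and −0.02 in WT plus HET against KO. The factors that bind class II promoters numbered 7, with a median of −0.07 in WT against KO and −0.04 in WT plus HET against KO, which was 0.13 and 0.12 on limma's log2(TPM + 1) scale. Creb1, 1 of them, was at 79.0 CPM (SD 12.2, n = 4) in WT plus HET and 57.7 CPM (SD 6.35, n = 6) in KO, a log2 fold change of 0.44 (SE 0.130, edgeR adjusted p = 0.744), with 0.25 in WT against KO and 0.62 in HET against KO. It was the 1 gene of the 7 with an unadjusted edgeR p under 0.05 there, beside 6.30% of all genes. Creb1 and Rfx5, a subunit of RFX, were below 0.05 in HET against KO, beside 10.2% of all genes. In WT against HET Rfx5 was below 0.05, beside 6.42% of all genes. Rfx5 was at 0.30 (SE 0.216) in WT plus HET against KO (0.12 without HET 1), 0.60 (SE 0.228) in HET against KO, −0.67 (SE 0.289) in WT against HET and −0.07 (SE 0.247) in WT against KO. The NF-Y subunits Nfyc and Nfyb, the most abundant of the 7 at 86.6 and 59.3 TPM, were at −0.06 (SE 0.098) and −0.04 (SE 0.127).

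Regulators of Ciita in B cells numbered 10, with a median of 0.03 in WT against KO and −0.00 in WT plus HET against KO, and 0 had an unadjusted p under 0.05 in any comparison by edgeR, DESeq2 or limma. Irf8 and Spi1, transcription factors of B and myeloid cells, led at 397 and 170 TPM. Their log2 fold changes were 0.08 (SE 0.098) and −0.08 (SE 0.124) in WT plus HET against KO. With single libraries left out, that of Irf8 ranged from 0.048 to 0.12 and that of Spi1 from −0.13 to −0.013. Prdm1, which represses Ciita in plasma cells, had 4.27 TPM and a value of −0.67 (SE 0.524; −0.35 without HET 2 and −0.37 without KO 6), and Usf1 one of −0.14 (SE 0.103).

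The endosomal proteases that degrade antigen and the invariant chain were represented by 10 genes. In WT plus HET against KO, 10 of 10 had a log2 fold change below 0 with a median of −0.12, but 5 of 10 on limma's log2(TPM + 1) scale and 6 of 10 without KO 1, 3 and 6. In WT against KO, 6 of 10 were above 0, with a median of 0.00. None had an unadjusted p under 0.05 by edgeR, DESeq2 or limma in these comparisons, and by edgeR Ctsb and Ctsl did in HET against KO and Ctsb in WT against HET, lower in HET each time, beside 10.2% and 6.42% of all genes. Macrophage and monocyte markers lay the same way, with 12 of 12 lower in HET against KO (median −1.55) and a median of 2.02 in WT against HET; their part in the values of Ctsb and Ctsl was not tested. Ctsz and Ctsh, at 536 and 430 TPM, had values of −0.16 (SE 0.120) and −0.11 (SE 0.114) in WT plus HET against KO, and Ctsc −0.25 (SE 0.176). Both Ctsz and Ctsc were at −0.09 without KO 6. The sign of Ctsh changed on limma's TPM scale (0.04) and without KO 1, 3 and 6 (0.05).

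Surface turnover genes numbered 3, with a median of 0.19 in WT against KO and 0.15 in WT plus HET against KO, where all were above 0, although March1 was at −0.13 without HET 1 and −0.04 without KO 5. Cd83, which stabilizes class II at the surface, was at 299 TPM and a log2 fold change of 0.15 (SE 0.118; 0.08 without WT 2). March1, the ubiquitin ligase that removes class II from the surface, was at 46.4 TPM and 0.03 (SE 0.162), and March8, its relative, at 1.90 TPM and 1.12 (SE 0.670, interval −0.33 to 2.57). H2-Eb2, a further class II beta chain gene of the same region (24.9 TPM), was at 0.28 (SE 0.172, edgeR adjusted p = 0.745), and H2-Ea, H2-Ea-ps and Ifi30 were not analysed here.

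MHC class I genes and their loading factors served as the neighbouring pathway, with 15 genes and a median of −0.04 in WT against KO and −0.11 in WT plus HET against KO, which was 0.10 and 0.04 on limma's log2(TPM + 1) scale. B2m, the light chain of class I, was at 2326 TPM and H2-D1, a heavy chain, at 1796 TPM. Their log2 fold changes were −0.41 (SE 0.222, interval −0.90 to 0.07) and −0.21 (SE 0.155) in WT plus HET against KO. They were −0.24 and −0.11 without KO 6, −0.22 and −0.06 on limma's log2(TPM + 1) scale, and −0.05 and −0.14 without KO 1, 3 and 6. Psmb9, a subunit of the immunoproteasome, was at −0.28 (SE 0.152). None of the 15 had an unadjusted p under 0.05 in those comparisons by edgeR, DESeq2 or limma. By edgeR 2 of 15, H2-D1 and H2-K1, did in HET against KO, beside 10.2% of all genes.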

How the data were processed

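SMART-Seq v4 libraries were made by a sequencing company, and the authors quantified paired-end reads with Salmon 0.9.1 against Gencode vM17 transcripts. The deposited files give estimated counts, TPM and effective length in bases for 64019 transcripts per library. Both values were summed per gene, and counts rounded. Genes with low counts were removed with filterByExpr, and 4 comparisons were fitted with edgeR 4.0.16 (TMM, quasi-likelihood, R 4.3.3), with Benjamini-Hochberg adjustment over all genes tested and a threshold of 0.1. HET against KO and WT against HET used all 10 libraries with a term per genotype. The edgeR step was tested on simulated counts with the same spread for all genes and changes larger than the members' estimates. It does not show how well changes as small as theirs are found. Shares and ratios were compared by 2-sided exact permutation of libraries (scipy 1.17.1), adjusted over 8 tests.

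Alternatives were DESeq2 1.42.0, limma 3.58.1 on log2(TPM + 1) and log2(TPM + 0.1), DESeq2 size factors, no filter or at least 10 counts in every library, length-scaled counts, leaving out immunoglobulin genes, other sets of libraries, a replicate block, a stricter threshold of 0.05, and the omission of single libraries. Leaving out KO 1, 3 and 6 together was chosen after seeing the data. Replicate numbers were used as numbers only.

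The members and lists were chosen with earlier results of these data known. Named genes were Zbtb38, all members, the 2 most abundant and the 2 with the smallest p of each pathway list, the most abundant marker of each cell type, and the 5 genes most like the classical chains. Positions and exons came from Gencode vM21, and gene identifiers from the deposited files. The germinal center list was set with 12 genes, and 1 was taken out after the results had been seen, on a request that did not concern its level.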

Additional observations from a re-analysis of the deposited data

Results flagged for a closer look

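Among 45 measures checked in the 6 KO libraries, 5 had 1 library far from the others, by a gap to the nearest that exceeded the 95% critical value of Dixon's ratio. Chance gives about 1 in 20 such groups. Cd74 was at 19495 CPM in KO 1 and at 11895 to 14668 CPM in the other 5. In TPM it was at 20585 in KO 1, with KO 2 next at 18383 and KO 6 lowest at 15340. The summed macrophage and monocyte markers were at 822 CPM in KO 4 and at 86.0 to 308 CPM in the others. The Ciita transcript with the longest coding sequence held 3.57% of the gene's TPM in KO 6 and 0 to 0.239% in the others. Nfyb was at 118 CPM in KO 6 and at 77.6 to 92.7 CPM in the others, and Ctsc at 438 CPM and 213 to 292 CPM. What set these libraries apart was not tested.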

How the results depend on the processing

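The count of members called was 0 in all 70 combinations of the 4 comparisons and their alternatives, with the smallest adjusted p of any member between 0.398 (HET against KO) and 1.00. Of 680 alternative member fold changes, 611 kept their sign and 69, in 25 results, did not, as did 20 of 360 for the named pathway genes and 16 of 80 for the shares and ratios. All of these values had missed the threshold to begin with, so none is a called direction that turned. The cause was not tested. Where 1 WT or HET library was left out, the lone library was assumed to vary like the other groups. With 2 WT and 2 HET libraries, differences within the 95% intervals given above were not excluded. Larger ones can also miss a threshold on p adjusted over all genes.

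On limma's log2(TPM + 1), the WT against KO log2 fold change was 0.061 for H2-Aa, 0.037 for H2-Ab1, 0.055 for H2-Eb1, 0.020 for Cd74, 0.11 for H2-DMa, 0.14 for H2-DMb1, 0.076 for H2-DMb2 and 0.035 for H2-Oa. In WT plus HET against KO it was 0.013 for H2-Aa, 0.0098 for H2-Eb1, 0.0037 for Cd74, 0.045 for H2-DMa, 0.090 for H2-DMb1, 0.046 for H2-DMb2, 0.076 for Nfyc, 0.12 for Nfyb, 0.13 for Spi1, 0.058 for Usf1 and 0.043 for Ctsh. With 0.1 added in place of 1 these values were the same to 2 digits, except for H2-DMb1 (0.091, WT plus HET against KO), Nfyc (0.077, WT plus HET against KO), Usf1 (0.059, WT plus HET against KO). In HET against KO, log2(TPM + 1) gave 0.044 for H2-DMb1 and 0.016 for H2-DMb2. With at least 10 counts in every library, WT against KO gave 0.0078 for H2-DMb1. With counts scaled by transcript length it gave 0.00039 for H2-DMb1 and −0.0067 for H2-Ob, and WT plus HET against KO 0.0035 for Spi1.

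Without KO 1, 3 and 6 together, WT against KO gave 0.089 for H2-Aa, 0.015 for H2-Ab1, 0.028 for H2-Eb1, 0.058 for Cd74, 0.082 for H2-DMa, 0.032 for H2-DMb2 and 0.036 for H2-Oa. WT plus HET against KO gave 0.045 for H2-Aa, 0.045 for Cd74, 0.026 for H2-DMa, 0.0079 for H2-DMb2, 0.059 for Nfyb, 0.089 for Spi1 and 0.052 for Ctsh. HET against KO gave 0.0042 for H2-Aa and 0.038 for Cd74.

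Without KO 1, values in WT plus HET against KO were −0.028 for H2-Aa, −0.071 for H2-Ab1, −0.047 for H2-Eb1, −0.029 for Cd74, −0.0085 for H2-DMa, −0.021 for H2-DMb2 and −0.080 for H2-Oa. With single libraries left out in turn, the log2 fold change in WT against KO ranged from −0.16 to 0.013 for H2-Aa, −0.11 to 0.044 for H2-DMa, −0.14 to 0.12 for H2-DMb1 and −0.043 to 0.074 for H2-Ob. In WT plus HET against KO it ranged from −0.10 to 0.019 for H2-DMb1, −0.0076 to 0.078 for H2-Ob, −0.13 to 0.11 for March1 and −0.10 to 0.052 for Nfyb. In HET against KO it ranged from −0.0049 to 0.073 for H2-Ob. In WT against HET it ranged from −0.0067 to 0.029 for Cd74, −0.057 to 0.20 for H2-DMb1, −0.043 to 0.12 for H2-DMb2 and −0.072 to 0.036 for H2-Ob. Differences in the H2-DMb2 share ranged from −0.942 to 0.210 (WT against KO) and −0.683 to 0.0948 (WT plus HET against KO), and in the Ciita share from −0.635 to 0.118 and −0.679 to 0.0350. The H2-O to H2-M ratio ranged from −0.023 to 0.022 and from −0.015 to 0.027, and was 0.037 and 0.058 from counts. The Cd74 share in WT against KO ranged from −0.0750 to 0.214, and in WT plus HET against KO from 0.225 to 0.514.

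Zbtb38 in WT against KO was at 2.19 to 2.49 with single libraries left out. DESeq2 called it (2.31, adjusted p below 0.001), and edgeR did with DESeq2 size factors, under either other filter and without immunoglobulin genes. It missed the threshold on log2(TPM + 1) (1.34), on log2(TPM + 0.1) (1.37), with length-scaled counts (1.19), without KO 1, 3 and 6 (2.09) and at a threshold of 0.05 (2.31), with adjusted p up to 1.00.

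The number of genes called in WT against KO was 10 with DESeq2, 0 and 3 with limma (1 and 0.1 added), 0 with length-scaled counts, 2 with all 10 libraries in the fit, 0 without KO 1, 3 and 6, 0 at a threshold of 0.05, and 0 to 2 with single libraries left out. In WT plus HET against KO it was 25 with DESeq2, 0 and 0 with limma, 0 with length-scaled counts, 0 without KO 1, 3 and 6, and 1 to 2 with single libraries left out. In HET against KO it was 515 with DESeq2, 0 with only the libraries compared, 17 without KO 1, 3 and 6, and 0 to 5 with single libraries left out. In WT against HET it was 185 with DESeq2, 523 with only the libraries compared, and 0 to 16 with single libraries left out.

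Replicate numbers were checked for pairing, and the correlation of deviations between libraries of the same number lay between −0.0144 and 0.118. With a replicate block, 0 members were called in each comparison, and 6, 0, 4 and 66 genes in WT against KO, WT plus HET against KO, HET against KO and WT against HET. Under it H2-Ob was at −0.17, −0.17 and −0.16 in the comparisons with KO, Nfyb at 0.079, Ctsc at 0.00073 and March1 at −0.14 in WT plus HET against KO. The members' median under it was −0.21, −0.26 and −0.30 in WT, WT plus HET and HET against KO, with 9 of 10 below 0 each time, and H2-Oa was at −0.37 in WT plus HET against KO. Zbtb38 was at 2.12 in WT against KO (edgeR adjusted p = 0.111), and it was not called there or in WT plus HET against KO.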

Other observations

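Between WT and HET, 8 of 12 macrophage and monocyte markers and 8 of 12 T cell markers had an unadjusted edgeR p under 0.05, all higher in WT, with medians of 2.02 and 2.29 on the log2 scale; of all genes 6.42% did. In HET against KO the counts were 6 of 12 and 5 of 12, all lower in HET, with medians of −1.55 and −1.13, beside 10.2% of all genes. In WT against KO they were 0 of 12 and 5 of 12, beside 2.19% of all genes. Naive B cell markers gave 5 of 10 in WT against HET, 6 of 10 in HET against KO and 1 of 10 in WT against KO. At an adjusted p below 0.1, edgeR called 0 of these markers, and in WT against HET DESeq2 called 3 macrophage and monocyte markers (C1qc, Cd14 and Itgam), 5 T cell markers (Cd3e, Cd3g, Lat, Trac and Trbc2) and 4 naive B cell markers (Ccr6, Ccr7, Ighd and Klf2), beside 1.06% of all genes. In HET against KO DESeq2 called 4 macrophage and monocyte markers (C1qa, C1qc, Cd14 and Cd68), 3 T cell markers, 5 naive B cell markers and 3 of 6 erythroid markers, beside 2.96% of all genes, and limma called 0 of these lists in either comparison. Of 8 dendritic cell markers tested, 7 were higher in WT against HET (median 1.21) and 7 lower in HET against KO (median −1.03), and Zbtb46 had an unadjusted edgeR p under 0.05 in both. These genes were named after their values were seen. The difference between these comparisons was not itself tested, and neither was the part of other cells in the MHC class II values.

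In WT plus HET against KO, 3 of the 4 erythroid markers tested had an unadjusted edgeR p under 0.05, with a median of −1.49, and 1 of 10 each of the naive B cell (Il4ra) and plasma cell (Mzb1) markers, beside 6.30% of all genes. The germinal center, light zone and dark zone lists had 0 there, with medians of 0.06, 0.10 and 0.00. In WT against HET they had 1 of 11, 2 of 10 and 3 of 10, beside 6.42% of all genes, and in HET against KO 0 of 11, 1 of 10 and 4 of 10 (Hmmr, Mki67, Polh and Top2a, all higher in HET), beside 10.2%.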
